A study of Mus musculus with 8 samples.

Results

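The enzymes that finish the digestion of sugar and protein at the intestinal surface were examined as a group of 10 genes, chosen by name. They were the disaccharidases Sis, Mgam, Lct and Treh, the peptidases Anpep, Enpep, Mme, Dpp4 and Mep1a, and the intestinal alkaline phosphatase Alpi. All 10 were among the 25239 genes of the count table, and all 10 had an adjusted p in the genotype comparison, as did 15446 genes in all. Intestinal epithelial cells (IECs) from the proximal small intestine had been sorted from crypt preparations of WT mice (labelled C57BL/6Jax) and of CD1d-KO mice (labelled CD1d1/2 KO), and profiled by bulk RNA-seq with 4 samples per genotype. The CD1d-KO line carries a germline deletion of the neighboring genes Cd1d1 and Cd1d2 in every cell of the animal, and lacks the natural killer T (NKT) cells that recognize lipids on CD1d. The mice were young adults, kept under specific pathogen-free conditions and given no treatment. The methods give both sexes, matched between genotypes, and the paper states that the mice were not littermates. The comparison asks how the epithelium differs where CD1d and NKT cells are absent, here for its digestive enzymes.

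The brush border is the carpet of microvilli on the luminal face of the absorptive enterocyte. Its enzymes are anchored in the microvillus membrane with the active site facing the lumen, where disaccharidases split sugars to monosaccharides and peptidases trim peptides to amino acids and short peptides that the neighboring transporters take up. Their transcripts accumulate as cells leave the crypt and mature along the villus, so they serve as markers of the absorptive lineage, and their level in bulk RNA follows both the number of absorptive cells in the sample and the RNA per cell, which cannot be told apart here.

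Total counts ranged from 23610266 to 31629435 per sample. Cd1d1 (chromosome 3, 86995836 to 86999340 in mm10) was counted 8, 3, 5 and 0 times in CD1d-KO samples 1 to 4, against 81, 70, 94 and 50 times in WT samples 1 to 4. Genes encoded on the Y chromosome were counted in CD1d-KO 1 and CD1d-KO 2 (sums of 5574 and 6946 normalized counts over 4 genes). Normalized counts are the deposited counts divided by DESeq2 size factors. The Y-linked genes were at or near 0 in the other 6 samples, which include every WT sample. Sex as read from these genes was thus not balanced between the genotypes, whereas the methods give it as matched. For members whose call turned on CD1d-KO 1 and 2, values without those 2 samples are given. Epithelial markers (Epcam, keratins, Cdh1 and claudins) summed to between 274800 and 305000 normalized counts in every sample. The leukocyte list of 8 genes summed to 71.4 to 140 in CD1d-KO against 137 to 758 in WT samples, and of 7 stromal and endothelial genes 3 had no more than 3 counts in any sample. Of the 3 erythroid genes, both hemoglobins were at 0. Surface genes of the stomach summed to 530 to 1131 in CD1d-KO against 1792 to 12550 in WT samples. Most of the CD1d-KO sums was Gkn3, at 522 to 905 normalized counts there and 562 to 1225 in WT samples. The others had no more than 3.91 in CD1d-KO 1, 2 and 3, up to 193 in CD1d-KO 4, and at least 10.8 in WT samples. With the score of the whole stomach list as a covariate, Mme, the one member called below, was again called (1.05 on the log2 scale, DESeq2 adjusted p = 0.00114). Called means an adjusted p under 0.05. That fit called 88 of 16541 genes. The score was -3.73 to 0.301 in CD1d-KO and 1.11 to 4.51 in WT samples, without overlap, so the fit cannot tell the stomach genes apart from genotype.

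Transcripts of the 10 enzymes were abundant in all samples and together took between 0.737% and 0.981% of the counts. As levels per length, in TPM (counts divided by the exon length in the table and scaled to the same total in each sample), Anpep, an aminopeptidase that removes neutral residues, was highest at 1370 ± 352 in CD1d-KO against 1391 ± 215 in WT (SD, n = 4). Sis, the sucrase-isomaltase that splits sucrose and the branch points of starch, followed at 911 ± 140 and 782 ± 67.7 TPM. The levels of these leading genes overlapped in CD1d-KO but not in WT samples.

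Mgam, the maltase-glucoamylase, Alpi and Enpep, an aminopeptidase that removes acidic residues, formed a middle tier of mean levels between 344 and 467 TPM whose neighbors in the order overlapped in both genotypes. Lct (lactase), Mep1a (the alpha subunit of the metalloprotease meprin) and Dpp4 (which removes dipeptides that end in proline) lay between 95.1 and 120 TPM and also overlapped with their neighbors. At the bottom, Mme (neprilysin, a membrane endopeptidase) stood at 89.5 ± 15.1 TPM in CD1d-KO and 58.4 ± 9.42 in WT, and Treh (trehalase, which splits the fungal sugar trehalose) at 61.4 ± 10.4 and 48.4 ± 7.37. The ranges of Mme and Treh overlapped in WT but not in CD1d-KO samples, while those of Dpp4 and Mme overlapped in CD1d-KO but not in WT samples. No sample held a member at background: the lowest raw count of any member was 804, for Treh, where counting error alone is 3.53%.

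**Figure D1:**
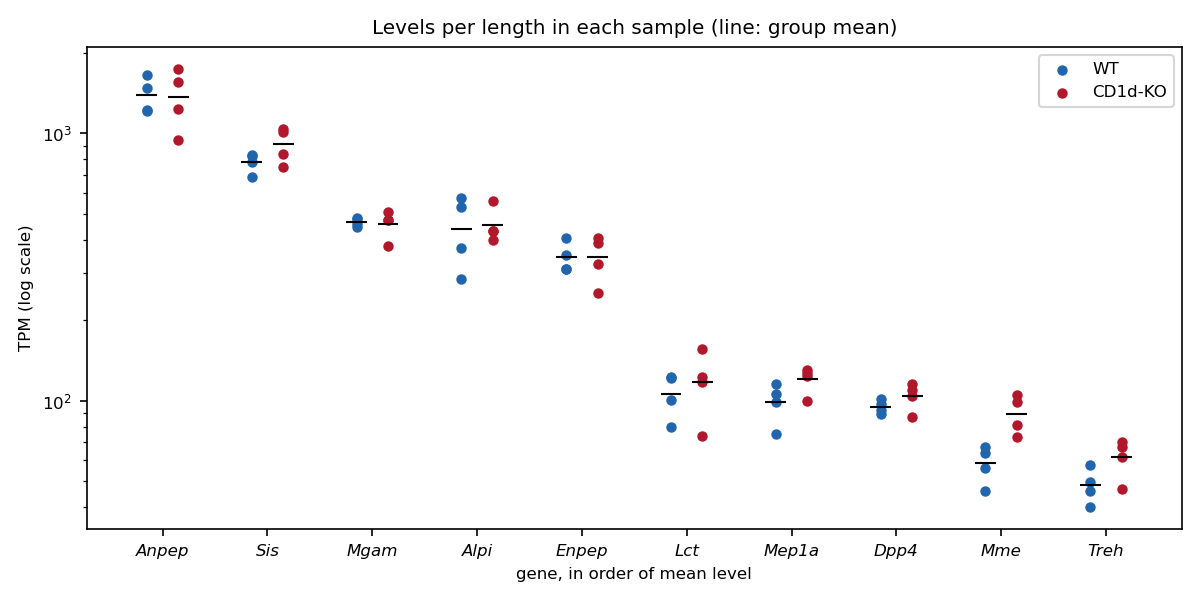
Levels per length of the 10 enzymes in each sample, in TPM on a log axis, with genes ordered by mean level, WT in blue and CD1d-KO in red, and lines at group means. Anpep and Sis lead, Mgam, Alpi and Enpep sit between 252 and 572 TPM, and Mme is the one gene whose red and blue points are separate.

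Among the 10 enzymes only Mme differed between the genotypes at a DESeq2 adjusted p under 0.05, and it was higher in CD1d-KO. Against this count of 1 in 10, 4.03% of all genes tested were called (622 of 15446, 255 higher and 367 lower). At an unadjusted p under 0.05, 4 of the 10 passed (Mme, Treh, Mep1a and Sis, each with the higher mean in CD1d-KO), against 15.3% of all genes tested. The genotypes did not overlap for 1 member, against 9.61% of all genes tested. The median log2 fold change was 0.14 over the members and 0.00099 over all genes tested. Values above 0 were 8 of the 10, against 7766 of the 15446 genes tested. These counts describe genes that vary together across the same 8 samples, so they are not independent of one another.

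Mme cleaves peptide hormones and other peptides at the amino side of hydrophobic residues. CD1d-KO samples 1 to 4 held 5674, 7679, 6683 and 8447 normalized counts, against 3635, 5125, 5370 and 4450 in WT samples 1 to 4. Every CD1d-KO sample was above every WT sample, with CD1d-KO 1 nearest to the WT range. The means of 7121 ± 1200 and 4645 ± 777 (SD, n = 4) differed by 0.62 ± 0.14 (SE) on the log2 scale, or 1.53-fold, with an adjusted p of 5.63e-04 by DESeq2. Mme was called under each of the 17 alternatives tried, with log2 fold changes from 0.47 to 1.05 and adjusted p from 4.25e-10 under the replicate block in DESeq2 to 0.0493 in edgeR's quasi-likelihood test. Without CD1d-KO 1 and 2, the samples with Y-linked counts, the log2 fold change of Mme was 0.70, with 2.57% of all genes called in that fit. Of the 22 genes that were called higher and were at least as abundant as Mme, Mme ranked at place 4 by fold change.

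**Figure D2:**
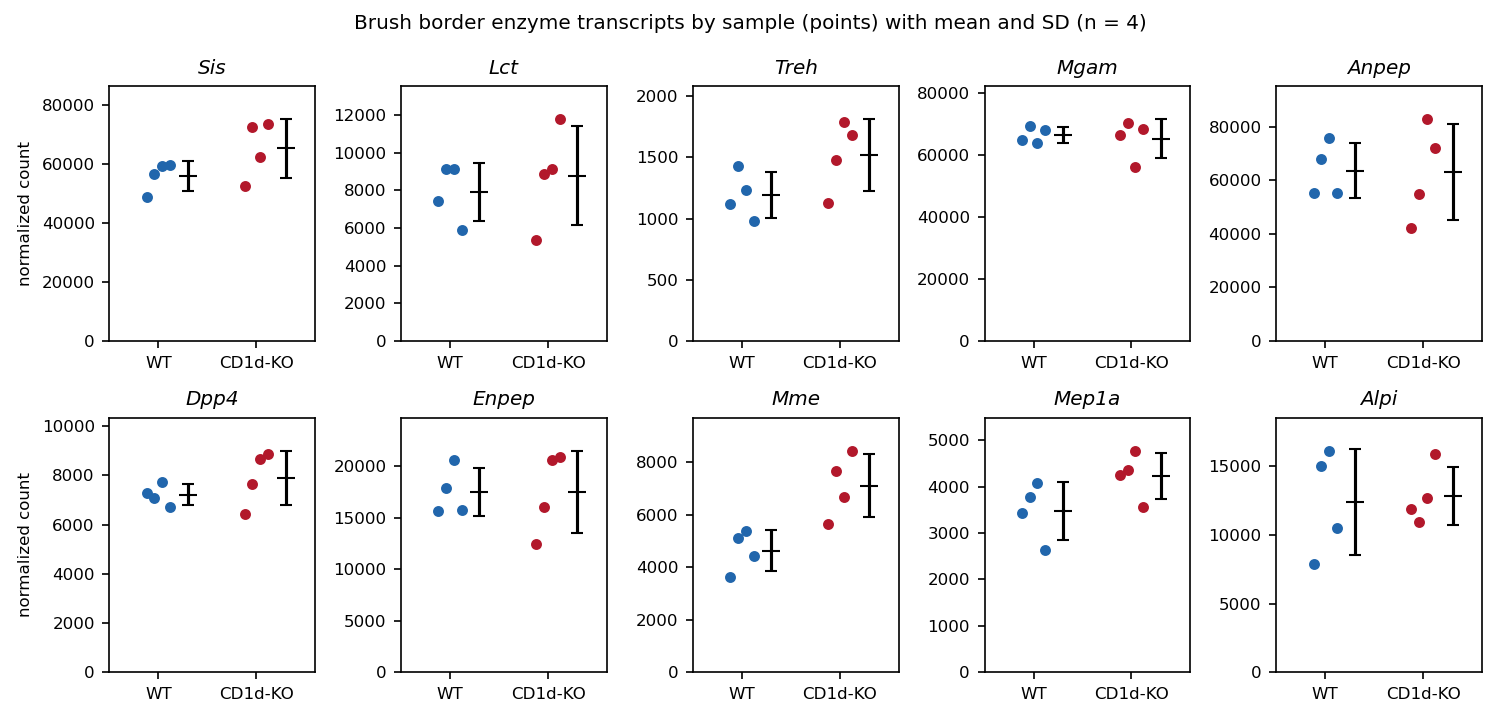
Normalized counts of the 10 enzymes in each of 4 WT (blue) and 4 CD1d-KO (red) samples, with the mean and SD beside the points and each vertical axis starting at 0. The groups are separate for Mme, from 5674 to 8447 against 3635 to 5370, and overlap for the other 9 genes.

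Mme lies on chromosome 3 (mm10, 63295211 to 63383713, plus strand), 23.6 Mb from Cd1d1. Sis (72888557 to 72967863, minus strand) and Enpep (129269177 to 129332749, minus strand) are on the same chromosome, 14 and 42.3 Mb from Cd1d1, and neither was called. Of the tested genes on chromosome 3, 7.17% were called (52 of 725), as were 8.10% within 25 Mb of Cd1d1 (32 of 395) and 3.88% on all other chromosomes (570 of 14707). Whether the region around the deletion has a part in the Mme difference was not tested. A stretch of up to 212 bases of the Mme transcript matched transcripts of at least 199 other genes at 85% identity or more. The number is a lower bound because the search listed a limited number of transcripts. Exon bases counted for Mme were 6611, and no other gene had exons inside its span.

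Mme and Sis had like patterns across the 8 samples (Pearson r = 0.88 on the log2 scale, and 0.90 after centering within genotype), as did Anpep and Enpep (0.98 in both forms). The 250 bases before the first start site of these genes are shown for that reason, from RefSeq's GRCm38.p6 annotation, the build of the count table, with capitals at each GATA and each TTTAT or TTTAC (letters of the CDX2 motif) on either strand.
Mme (chr3:63294961-63295210, plus strand): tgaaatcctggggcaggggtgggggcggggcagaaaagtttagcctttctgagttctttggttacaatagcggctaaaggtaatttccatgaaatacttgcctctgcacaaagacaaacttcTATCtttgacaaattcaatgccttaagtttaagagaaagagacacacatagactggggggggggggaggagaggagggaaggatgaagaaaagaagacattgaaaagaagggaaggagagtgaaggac
Sis (chr3:72967864-72968113, minus strand): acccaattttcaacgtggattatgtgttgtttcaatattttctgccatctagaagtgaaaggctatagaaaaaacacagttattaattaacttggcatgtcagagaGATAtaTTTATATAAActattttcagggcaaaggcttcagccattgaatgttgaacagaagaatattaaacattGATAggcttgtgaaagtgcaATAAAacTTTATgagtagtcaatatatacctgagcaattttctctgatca
Anpep (chr7:79848211-79848460, minus strand): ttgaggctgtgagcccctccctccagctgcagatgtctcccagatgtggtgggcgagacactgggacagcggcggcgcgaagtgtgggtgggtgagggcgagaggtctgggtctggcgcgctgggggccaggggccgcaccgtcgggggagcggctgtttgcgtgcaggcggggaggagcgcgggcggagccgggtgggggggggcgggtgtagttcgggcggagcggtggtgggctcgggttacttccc
Enpep (chr3:129332750-129332999, minus strand): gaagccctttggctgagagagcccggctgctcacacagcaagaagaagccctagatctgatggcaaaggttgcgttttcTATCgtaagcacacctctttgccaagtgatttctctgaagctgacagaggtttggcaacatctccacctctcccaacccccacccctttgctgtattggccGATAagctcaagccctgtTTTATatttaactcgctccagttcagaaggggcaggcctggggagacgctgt
The Sis window held 2 GATA and 4 CDX2 matches, with the CDX2 matches beginning between 138 and 43 bases before the start, and adjacent but not overlapping where they stand in a run of capitals. The Mme window held 1 GATA match and no CDX2 match, and the other 2 start sites of Mme, further 3′, held neither. The Anpep window, rich in G and C, held none, while that of Enpep held 2 GATA and 1 CDX2 match, and the transcripts of these aminopeptidases had the highest r of all 45 pairs of members. The 10 members had 12 windows, of which 8 held a GATA and 6 a CDX2 match, against 53.6% and 51.2% of all 32851 windows of this length. A match is a description of letters and not a bound site.

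None of the 4 disaccharidases was called. Sis had 52601, 72496, 62187 and 73625 normalized counts in CD1d-KO samples 1 to 4 and 48656, 56657, 59261 and 59447 in WT samples. Its CD1d-KO samples 2, 3 and 4 were above all WT samples, and CD1d-KO 1 lay inside the WT range. On the log2 scale the difference was 0.22 ± 0.11 (SE; 95% interval 0.0067 to 0.43; DESeq2 adjusted p = 0.304). Without CD1d-KO 1, Sis was called at 0.31 with a DESeq2 adjusted p of 0.0274, in a fit that called 3.22% of all genes. Without CD1d-KO 1 and 2, Sis was at 0.28 and not called (DESeq2 adjusted p = 0.143).

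Treh (chromosome 9, 44673233 to 44686305, plus strand) had 1124, 1479, 1790 and 1682 normalized counts in CD1d-KO samples and 1123, 1432, 1231 and 983 in WT samples. Again CD1d-KO samples 2, 3 and 4 were above all WT samples, while CD1d-KO 1 and WT 1 were nearly equal. The difference of 0.35 ± 0.15 on the log2 scale (SE; 95% interval 0.062 to 0.64) missed the threshold (adjusted p = 0.185 by DESeq2). It was 0.47 (DESeq2 adjusted p = 0.00942) without CD1d-KO 1 and 0.54 (adjusted p = 0.0043) without CD1d-KO 1 and 2. Of the 8 fits that left out 1 sample, only the 1 without CD1d-KO 1 called Treh.

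Lct (chromosome 1, 128284756 to 128328318, minus strand), which is highest in suckling animals and falls after weaning, ranged from 5346 in CD1d-KO 1 to 11767 in CD1d-KO 4, the widest spread among the CD1d-KO samples of any member (2.20-fold). Its WT counts of 7431, 9129, 9107 and 5894 all lay inside that range. The log2 fold change was 0.15 ± 0.25 (SE; 95% interval -0.34 to 0.65; DESeq2 adjusted p = 0.869).

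Mgam (chromosome 6, 40628831 to 40769123, plus strand), which shares its domain plan and 69.2% of its bases with Sis over an aligned 2328 bases of their transcripts, was the steadiest member. Its normalized counts were 66375, 70284, 56106 and 68315 in CD1d-KO against 64776, 69438, 63938 and 68090 in WT samples. The WT samples differed by no more than 1.09-fold, and only CD1d-KO 3 was low. Its difference of -0.028 ± 0.077 on the log2 scale (SE; 95% interval -0.18 to 0.12; DESeq2 adjusted p = 0.937) was the most tightly bounded of the 10. The table's Mgam model spans 140 kb with 95 distinct exon intervals and 11855 bases, so its level per length depends on that model.

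Among the peptidases other than Mme, Mep1a came nearest to the threshold. Mep1a (chromosome 17, 43474329 to 43502773, minus strand) had 4244, 4347, 4770 and 3564 normalized counts in CD1d-KO and 3436, 3773, 4080 and 2632 in WT samples. CD1d-KO 1, 2 and 3 were above all WT samples and CD1d-KO 4 was not, so the sample that overlapped was another one than for Sis and Treh. The log2 fold change was 0.28 ± 0.13 (SE; 95% interval 0.031 to 0.53; DESeq2 adjusted p = 0.243).

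Dpp4 also inactivates incretin hormones such as GLP-1. Dpp4 (chromosome 2, 62330073 to 62412231, minus strand) had 6432, 7659, 8645 and 8843 normalized counts in CD1d-KO and 7291, 7077, 7732 and 6725 in WT samples. CD1d-KO 1 was the lowest of all 8 samples and CD1d-KO 4 the highest. Dpp4 differed by 0.13 ± 0.099 on the log2 scale (SE; 95% interval -0.063 to 0.33; DESeq2 adjusted p = 0.593), and it was called without CD1d-KO 1 and 2 (0.28, adjusted p = 0.0299).

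Anpep and Enpep gave group means that were almost equal and a wide spread inside the CD1d-KO group. Anpep (chromosome 7, 79821803 to 79848210, minus strand) ranged from 42260 in CD1d-KO 1 to 82729 in CD1d-KO 3, with 54786 and 72007 in CD1d-KO 2 and 4, while WT samples 1 to 4 had 55253, 67853, 75866 and 55201. Enpep had 12475, 16036, 20540 and 20879 in CD1d-KO against 15629, 17903, 20564 and 15731 in WT samples. For both genes CD1d-KO 1 was the lowest of the 8 samples and the highest sample was also CD1d-KO.

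The log2 fold changes were -0.014 ± 0.22 for Anpep (SE; 95% interval -0.44 to 0.41; DESeq2 adjusted p = 0.99) and 0.0021 ± 0.15 for Enpep (-0.29 to 0.29; adjusted p = 0.998). The ratio of their normalized counts moved little, from 3.39 to 4.03 across the 8 samples. Both encode related zinc aminopeptidases, and their transcripts aligned over 113 bases at 71.7% identity, below the 85% used here to name shared sequence.

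Alpi (chromosome 1, 87098002 to 87101606, minus strand), which removes phosphate from lipids, nucleotides and bacterial lipopolysaccharide, had 11868, 10936, 12644 and 15856 normalized counts in CD1d-KO and 7917, 15015, 16114 and 10463 in WT samples. The CD1d-KO samples lay inside the WT range, whose ends differed by 2.04-fold. Alpi differed by 0.051 ± 0.23 on the log2 scale (SE; 95% interval -0.41 to 0.51; DESeq2 adjusted p = 0.966). The Alpi transcript matched those of 4 other genes, over at most 717 bases (Gm70996, at 86.2% identity). Among the 4 were its neighbor Akp3, another intestinal alkaline phosphatase, at 93.2% identity over 413 bases and Alppl2 at 87.9% over 124 bases. Reads may thus have been split between Alpi, Akp3 and Alppl2. Akp3 had 3164, 2524, 2111 and 4012 normalized counts in CD1d-KO and 1242, 4387, 4020 and 1972 in WT samples, with WT 1 and WT 4 low for Akp3 as for Alpi. Treh matched 2 other transcripts over at most 222 bases, and the members other than Alpi, Treh and Mme matched none at 85% identity over 100 bases.

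**Figure D3:**
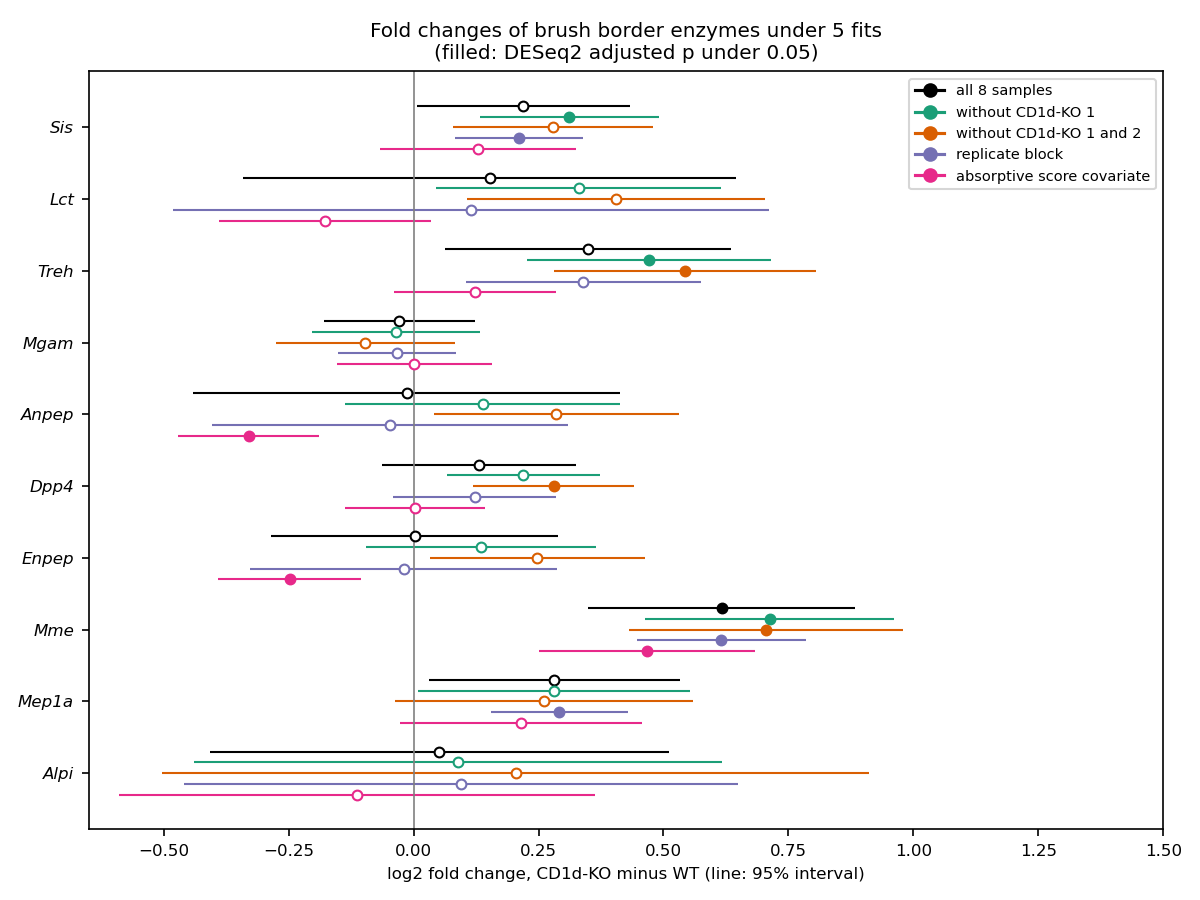
Log2 fold changes (CD1d-KO minus WT) of the 10 enzymes with 95% intervals in DESeq2 fits on all samples, without CD1d-KO 1, without CD1d-KO 1 and 2, with a replicate block and with the absorptive marker score as a covariate. Filled points passed an adjusted p of 0.05, and Mme is filled in all 5 fits at 0.47 to 0.71.

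Much of the spread was shared by the genes of a sample. Centered on each gene's mean, the mean of the 10 members was -0.21, 0.09, 0.19 and 0.28 on the log2 scale in CD1d-KO samples 1 to 4 and -0.25, 0.05, 0.10 and -0.24 in WT samples 1 to 4. Low samples (CD1d-KO 1, WT 1 and WT 4) were thus found in both genotypes, which overlapped. CD1d-KO 1 was the lowest of all 8 samples for 4 of the 10 members, WT 1 for 3 and WT 4 for 2, whereas CD1d-KO 4 was the highest for 5 and CD1d-KO 3 for 3.

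The 36 pairs of members without Mgam all had a positive Pearson r over the 8 samples, from 0.16 to 0.98 with a median of 0.59. Of the 9 pairs with Mgam, 3 were positive, and their median was -0.32. These correlations are descriptions over 8 samples, in each of which the genes share a library and its depth. The ratio of Mme to Sis, chosen after its values were seen, was 0.106 to 0.115 in CD1d-KO against 0.0747 to 0.0906 in WT samples, so Mme was higher relative to the member it most resembled.

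The 16 absorptive enterocyte markers, among them apolipoproteins, fatty acid binding proteins and nutrient transporters and none of the 10 members, were low in the same samples, CD1d-KO 1, WT 1 and WT 4. Their score, the mean centered log2 value, was -0.28, 0.06, 0.36 and 0.29 in CD1d-KO samples against -0.25, 0.07, 0.06 and -0.30 in WT samples. None of the 16 was called by DESeq2 or edgeR and 2 passed an unadjusted p of 0.05. Their median log2 fold change was 0.18, and 14 of the 16 values were above 0. Crypt markers had scores of 0.19, 0.03, 0.05 and 0.02 in CD1d-KO against 0.10, -0.12, -0.18 and -0.08 in WT samples, and CD1d-KO 1 was the highest for them and among the lowest for the enzymes. Of the 14 crypt markers, 1 was called, Lyz1, a lysozyme of Paneth cells, at 0.73 ± 0.23 (SE; DESeq2 adjusted p = 0.0416), and edgeR did not call it. Over the crypt list the median log2 fold change was 0.1, and 11 of the 14 genes were higher in CD1d-KO. Of 7 villus tip markers 1 was called lower, the nucleoside transporter Slc28a2 (-0.84 ± 0.13, DESeq2 adjusted p = 8.04e-08). Of 6 villus base markers 2 were called lower, the antimicrobial lectins Reg3b (-1.45 ± 0.35, adjusted p = 0.00177) and Reg3g (-1.25 ± 0.25, adjusted p = 7.25e-05). The other villus base markers were not called by DESeq2. The median log2 fold change was -0.096 over the tip list and -0.022 over the base list, and 2 genes of each list were higher in CD1d-KO. Of 5 proximal and 6 distal small intestine markers none was called by DESeq2 or edgeR, with 0 and 2 at an unadjusted p under 0.05 in DESeq2.

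With the absorptive score as a covariate, an alternative chosen after the data were seen, DESeq2 called 3 of the 10 members and 5.97% of all genes. Mme stayed higher in CD1d-KO at 0.47 (adjusted p = 0.00117 by DESeq2). Treh at 0.12 (DESeq2 adjusted p = 0.492), Sis at 0.13 (0.579) and Dpp4 at 0.0021 (0.994) were nearer to 0 than without the covariate and not called. Anpep was lower at -0.33 (adjusted p = 0.000304) and Enpep lower at -0.25 (adjusted p = 0.0171), so at a given score of absorptive markers both aminopeptidases were lower in CD1d-KO, where without the covariate their means were almost equal. Taken as the centered log2 value minus the score, Mme overlapped between genotypes, with CD1d-KO 3 at -0.13 and WT 4 at -0.049. CD1d-KO 1, 2 and 4, at 0.281, 0.378 and 0.285, were above all WT samples. In the same measure Enpep overlapped, while Anpep, lower in CD1d-KO, did not. Treh did not overlap either and was higher in CD1d-KO (0.042 to 0.099 against -0.169 to 0.034 in WT samples). The share of all genes without overlap in this measure is not reported here. The score itself differed in range between genotypes, and its part in these values cannot be told apart from genotype with 4 samples each.

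**Figure D4:**
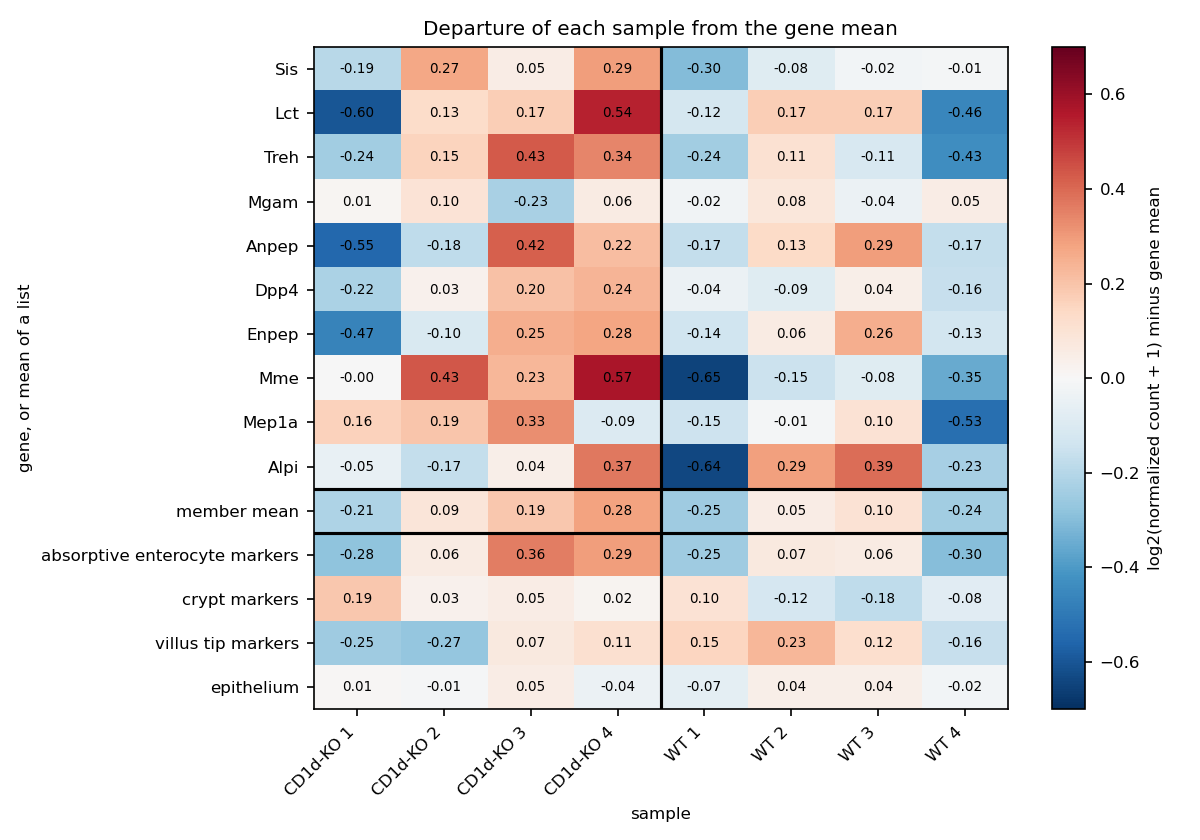
Departure of each sample from the gene's mean over 8 samples, as log2(normalized count + 1), for the 10 enzymes, their mean, and the scores of 4 marker lists, with red above and blue below the mean. CD1d-KO 1, WT 1 and WT 4 are low for the member mean (-0.21, -0.25 and -0.24) and for the absorptive markers, and the epithelium list stays between -0.07 and 0.05.

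The genes whose patterns were most like the member mean, among 11721 genes with a mean normalized count of at least 50, included Plpp1 (Pearson r = 0.977), Riok3 (0.974), Rfk (0.973), Gk (0.973), Asah2 (0.965), Nudt7 (0.965) and Sult1b1 (0.963). Asah2, a ceramidase, is a brush border enzyme itself. None of these 7 was called between genotypes by DESeq2, with adjusted p from 0.254 to 0.822.

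Other genes of the brush border were read from 5 lists set by hand, none of whose genes was called by edgeR. Of 17 other brush border enzymes 16 were tested, none was called by DESeq2, 2 passed an unadjusted p of 0.05, and the median log2 fold change was 0.18. The smallest adjusted p belonged to Tmprss15, the enteropeptidase that activates trypsinogen, with normalized counts of 2.68, 2.86, 1.95 and 3.84 in CD1d-KO against 3.93, 19.9, 12.6 and 8.56 in WT samples. These do not overlap but rest on few reads (log2 fold change -1.99 ± 0.73, DESeq2 adjusted p = 0.102). Ggt1, which breaks down glutathione, followed (0.36 ± 0.17, adjusted p = 0.257 by DESeq2).

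Without CD1d-KO 1, the enzymes of this list that DESeq2 called included Ggt1 at 0.50 and Asah2 at 0.47 on the log2 scale, both higher in CD1d-KO. Without CD1d-KO 1 and 2, Dpep1 at 0.51 and Car4 at 0.50 were called as well.

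Of 16 genes that build the microvillus, 1 was called. Cobl, which nucleates actin filaments, had 4223, 5133, 4044 and 5097 normalized counts in CD1d-KO and 3102, 3522, 3665 and 3769 in WT samples. The groups did not overlap and differed by 0.40 ± 0.098 on the log2 scale (SE; adjusted p = 0.00347 by DESeq2), but the call was lost in edgeR (adjusted p = 0.0572). The median over the 16 genes was -0.023. With the absorptive score as a covariate DESeq2 called 4 of the 16, Cobl higher at 0.38 and 3 lower in CD1d-KO, which were Cdhr5 (-0.25), an adhesion protein of microvillus tips, Slc9a3r1 (-0.22), a scaffold protein, and Vil1 (-0.20), the actin bundler villin. The same fit called Mep1b (-0.34), the beta subunit of meprin, and the intracellular peptidase Xpnpep1 (-0.21) lower.

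Of 9 intracellular peptidases, which finish the peptides that reach the cytosol, none was called by DESeq2 and 2 passed an unadjusted p of 0.05. Dpp3 was nearest, at -0.17 ± 0.059 (DESeq2 adjusted p = 0.0645) with no overlap between groups, and was called at -0.20 without CD1d-KO 3 or without WT 4. It was followed by Cndp2 at 0.24 ± 0.12 (adjusted p = 0.29). Of 7 genes of apical delivery, which carry membrane proteins to the brush border, none was called by DESeq2 and 1 passed an unadjusted p of 0.05. Anxa13 was at 0.23 ± 0.086 (DESeq2 adjusted p = 0.117) and Lgals4 at -0.19 ± 0.16 (adjusted p = 0.649). Anxa13 was called at 0.29 without CD1d-KO 1 and at 0.35 without CD1d-KO 1 and 2. Of 13 enterocyte transcription factors, the class that includes Cdx2, Hnf4a and Gata4, none was called by DESeq2 and 3 passed an unadjusted p of 0.05. Elf3 came nearest (-0.17 ± 0.066, DESeq2 adjusted p = 0.12, and called at -0.21 without WT 3), then Gata6 (0.14 ± 0.064, adjusted p = 0.228).

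**Figure D5:**
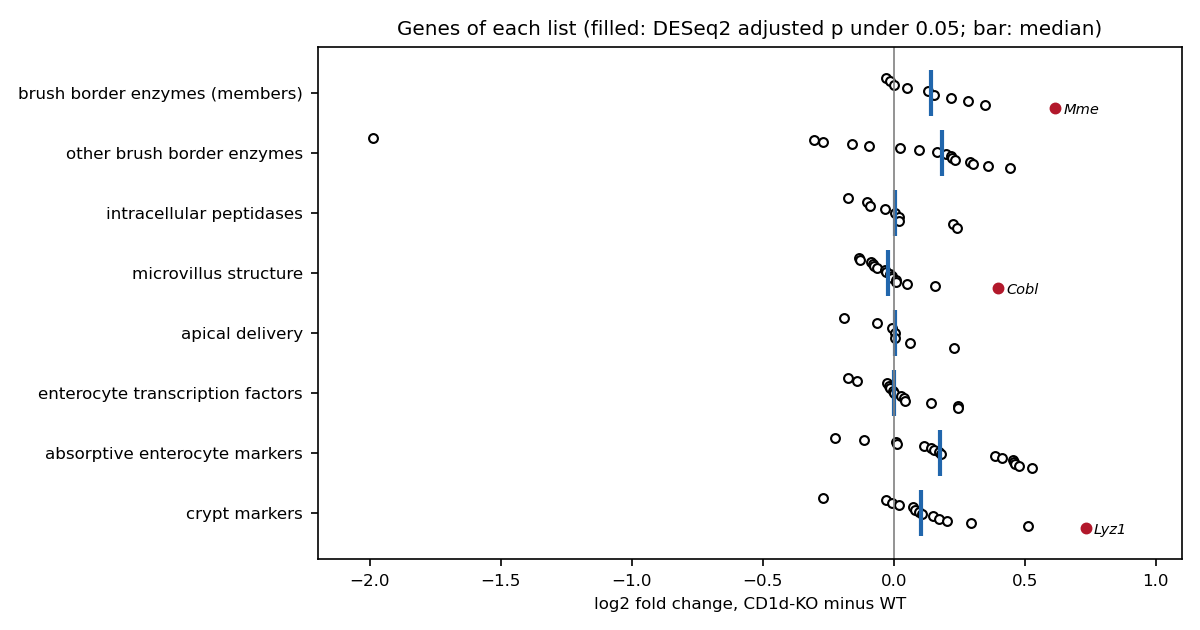
Log2 fold change (CD1d-KO minus WT) of each tested gene in the 10 enzymes, 5 further lists of the brush border and its regulation, and 2 marker lists, with a bar at the median and filled points at a DESeq2 adjusted p under 0.05. Mme (0.62), Cobl (0.40) and Lyz1 (0.73) are the filled points, and the point far to the left is Tmprss15 (-1.99).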

How the data were processed

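The authors deposited 1 table of raw fragment counts per gene for the 8 samples. Per the file header, it was made with featureCounts 1.6.4 on read pairs and primary alignments over mm10 exons, without strand, whereas the methods of the paper give GRCm39 as the genome for HISAT2. Coordinates are those of the table. It had 0 unused per-sample columns. Pairs of replicates differed beyond sampling noise (chi-square per degree of freedom 10.23 to 39.51), and the methods give 1 mouse per sample, while the labels give no day or batch.

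The counts were normalized and tested with DESeq2 1.42.0 (R 4.3.3; Wald test, genotype as the only term, Benjamini-Hochberg adjustment over 15446 genes, called under 0.05) and, as an alternative, with edgeR 4.0.16. TPM values used the exon lengths of the table. The script was tested on simulated counts. Transcripts (GENCODE vM39) were compared with BLAST 2.17.0 from 100 bases at 85% identity. Named genes were all members, Cd1d1, the called genes of each list or otherwise the 2 with the smallest adjusted p, the 8 genes most like the member mean, and marker genes that were called. Members, lists and alternatives were chosen with earlier results of these data known. Intervals are the estimate ± 1.96 SE, and counting error does not cover duplicate molecules. Protein sequences were not used here, and some items that these rules would name are not reported here.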

Additional observations from a re-analysis of the deposited data

How the results depend on the processing

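The 17 alternatives were edgeR, TMM factors, factors outside the 50 most abundant genes, a filter of 10 counts in 4 samples, no independent filtering, the replicate block, each sample left out in turn, both samples with Y-linked counts left out, and covariates for the stomach score and, added after the data were seen, the absorptive score. The call of Mme held in all 17. Genes called overall were 622, and 228 with edgeR, 372 without the samples with Y-linked counts and 88 with the stomach score, which differs by genotype. They ranged from 323 to 646 when 1 sample was left out, with 323 without CD1d-KO 2, 406 without WT 1 and 385 without WT 2. Members called, 1 in the reported fit, ranged from 1 to 3 when 1 sample was left out, with 3 without CD1d-KO 1 (Mme, Sis, Treh). They were 3 without the samples with Y-linked counts (Mme, Treh, Dpp4) and 3 with the absorptive score (Mme, Anpep, Enpep). Under the replicate block 569 genes and 3 members were called (Mme; Sis, 0.21, DESeq2 adjusted p = 0.0347; Mep1a, 0.29, adjusted p = 0.00179). The labels do not say whether samples of the same number were paired. Same-numbered samples correlated at 0.285, 0.025, 0.221 and 0.00395 after centering within genotype, against -0.354 to 0.355 for the other pairs. Not every sample correlated best with its own number, and these values cannot decide whether the numbers mark a pairing.

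Signs changed for 5 members, none of them called in the reported comparison. With the absorptive score, Lct was -0.18, Mgam 0.0018, Enpep -0.25 and Alpi -0.11. With the stomach score, Mgam was 0.016 and Anpep 0.32, and Anpep was 0.29 without the samples with Y-linked counts. Enpep was -0.00066 in edgeR and -0.020 under the replicate block. Leaving out 1 sample gave ranges of -0.022 to 0.33 for Lct, -0.065 to 0.038 for Mgam, -0.17 to 0.14 for Anpep, -0.094 to 0.14 for Enpep and -0.11 to 0.20 for Alpi. Depth was not limiting for members, and their intervals follow the spread between samples.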
